A study of Mus musculus with 8 samples.

Results

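The axon guidance ligands and receptors of mouse embryonic stem cells (ESCs) were examined after depletion of the histone chaperone subunits Hira, Ubn1 or Ubn2. The members were all genes whose symbol names an ephrin, an Eph receptor, a semaphorin of classes 3 to 7, a plexin, a neuropilin, a netrin, an Unc5 receptor, Dcc, a Slit or a Robo. This rule used names and no measured value, and it took 69 of the 55418 genes in the count tables, of which 69 are annotated as protein coding. They comprised 35 ligands and 34 receptors: 22 genes of the ephrin and Eph system, 31 semaphorins, plexins and neuropilins, 9 genes of the netrin system and 7 Slits and Robos. RNA-seq had been performed on 8 libraries, 2 for each of 4 conditions. E14 ESCs, a mouse line given the strain name 12910la in the sample labels, were grown on gelatin with serum and LIF. They were transfected with 1 µg of the puromycin-resistance plasmid pSUPER-puro, which in the depleted cells carried an shRNA against Hira, Ubn1 or Ubn2. The control cells are labelled wild type, and the study's methods name a luciferase shRNA as its control. All groups were selected with puromycin for 3 days. The data therefore come from one line under transient knockdown, and no source used here says whether the 2 libraries of a group came from separate cultures, so that p-values measure the spread between these libraries only.

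Guidance cues are secreted or membrane-bound proteins that steer the growth cone of a growing axon towards or away from a target. Ephrins bind Eph receptor tyrosine kinases at cell contacts, semaphorins bind plexins with neuropilins as co-receptors of the secreted class 3 members, netrins bind Dcc and the Unc5 receptors, and Slits bind Robos. The same families act outside the nervous system, in blood vessel growth, epithelial contacts and the sorting of cells in the early embryo.

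Total counts on genes lay between 19710040 and 32706053 per library. Members took between 0.140% and 0.173% of them, and 62 to 68 of the 69 members had a count in a library. In each library, 3 counts corresponded to between 9.17e-06% and 1.52e-05% of the total, a limit that covers counting error only. Hira expression in CPM, the counts scaled to TMM-normalized library totals, went from 93.5 ± 5.76 in control to 10.2 ± 0.261 after Hira depletion, Ubn1 from 48.5 ± 6.33 to 23.8 ± 0.0369 after Ubn1 depletion and Ubn2 from 50.9 ± 1.12 to 27.3 ± 3.92 after Ubn2 depletion (SD, n = 2). The summed CPM of 10 ESC markers was 5814 to 6048 in control libraries and 5120 to 5548 in all others. The sources used here do not state whether counting used the strand of the reads. Exon bases of 18 members are shared with another annotated gene, and the pairs with larger overlaps are named where a result touches them.

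Control ESCs expressed receptors of all 4 systems. Of the 69 members, 50 had a control mean of at least 1 CPM, 23 of at least 10 CPM and 5 of at least 100 CPM. Levels were compared between genes as CPM per kilobase of annotated exon. Epha2, an Eph receptor tyrosine kinase, stood first at 58.3 CPM per kilobase, with 289 and 256 CPM in the control libraries. Plxnb2, a receptor for class 4 semaphorins, had 19.3 CPM per kilobase, Epha4 had 17.6, and Plxna1, a co-receptor partner of the neuropilins, had 16.2. Among ligands, the secreted cue Ntn1 led with 17.4 CPM per kilobase, ahead of the transmembrane semaphorin Sema4b with 10.4, the membrane-anchored ephrins Efna4 and Efna3 with 6.82 and 6.33, and Sema6c with 5.88. The receptors Unc5b, Unc5a, Robo4 and Robo1 had 3.55, 1.42, 3.14 and 2.71. Summed over a system, Eph receptors gave 103 and 98.5 CPM per kilobase in the control libraries against 20.1 and 23.4 for the ephrins. The Slit ligands summed to 1.17 in each control library and the Robos to 5.64 and 6.41.

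**Figure D1:**
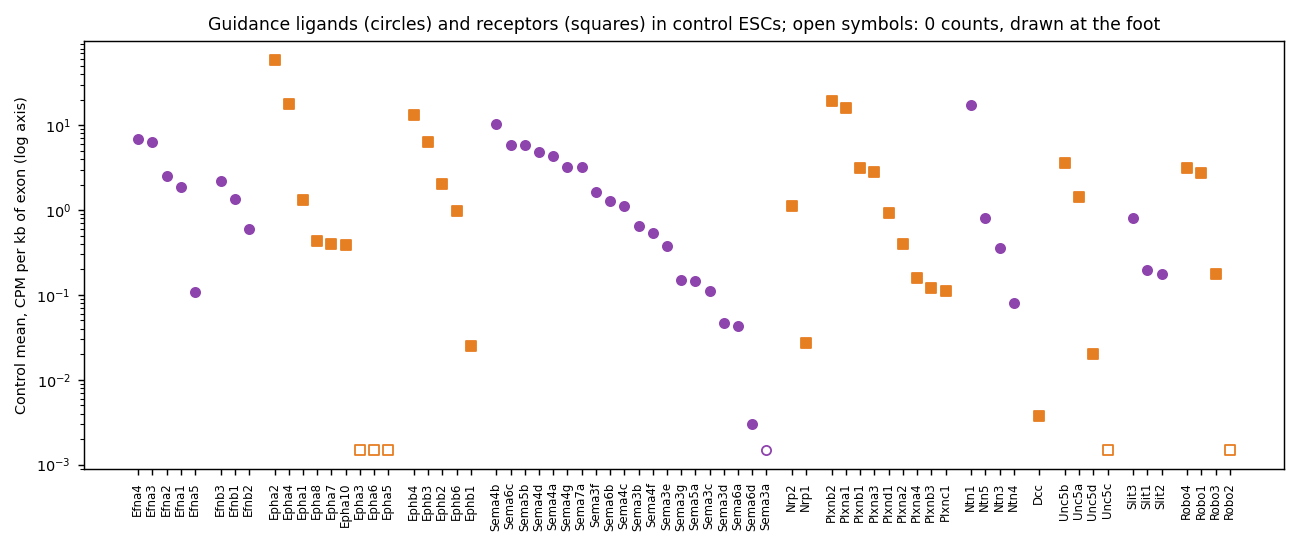
Mean control level of each of the 69 members in CPM per kilobase of exon (log axis; mean of 2 libraries), with ligands as circles and receptors as squares, grouped by family and ordered within a family by level. Epha2 is the highest at 58.3, and the 6 members with 0 counts in both control libraries are drawn as open symbols at the foot.

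The low end of the group was nearly silent. Robo2, Epha3, Epha5, Epha6, Unc5c and Sema3a had 0 counts in both control libraries. Robo2 then had 7 and 6 counts in Hira-depleted, 3 and 4 in Ubn1-depleted and 1 and 1 in Ubn2-depleted libraries. Its mean after Hira depletion was at least 2.07-fold higher than a control floor of 3 counts per library, but it was not tested in any comparison. The netrin receptor Dcc had between 0 and 4 counts in every library. No member lacked counts in all 8 libraries, and 9 members were too low to be tested in any comparison while 57 were tested in all 4.

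Each depletion was compared with the same 2 control libraries to ask which guidance genes changed after it. To be called, a gene needed both a fold change over 1.5 and an adjusted p under 0.05, from the quasi-likelihood test of edgeR with p-values adjusted by Benjamini and Hochberg over all genes tested. After Hira depletion, 15 of 60 tested members were called higher (25%), against 10.8% of all 19035 genes tested, and 2 were called lower (3.33%), against 5.4% of all genes. After Ubn1 depletion, 3 of 58 tested members were called higher (5.17%, against 1.53% of all genes) and 2 lower (3.45%, against 1.56%). After Ubn2 depletion, 11 of 57 tested members were called higher (19.3%, against 9.59%) and 6 lower (10.5%, against 8.75%). The median log2 fold change of the tested members was 0.21 after Hira, 0.13 after Ubn1 and 0.15 after Ubn2 depletion, where the median of all genes tested was 0.01, 0.00 and 0.00. A member can pass the filter on low counts through the group in which it is high, so these shares and medians describe the tested members and not all 69. The medians depended on single libraries: the Hira value was 0.40 without control replicate 2 and 0.33 without Hira replicate 2, the Ubn1 value was 0.05 without control replicate 1 and 0.02 without Ubn1 replicate 2, and the Ubn2 value was 0.05 without control replicate 1 and 0.04 without Ubn2 replicate 1. In total 24 members were called in at least 1 depletion. The matching share over all genes was not counted, so this total does not set the members apart from other genes. The 3 comparisons share their controls.

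**Figure D2:**
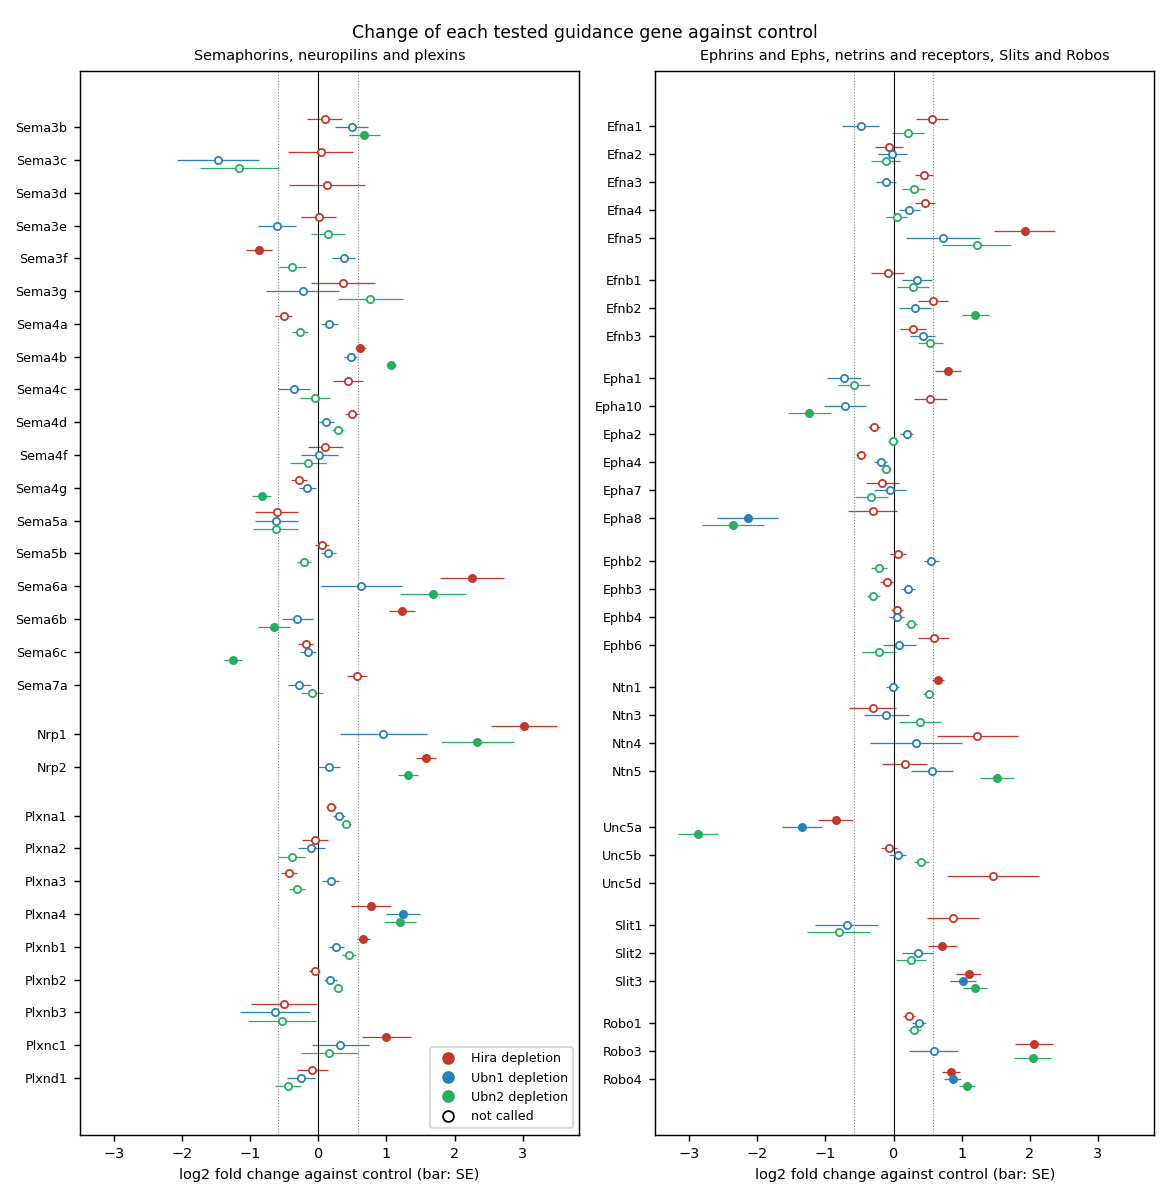
Log2 fold change against control of every tested member (points, with 1 standard error as a bar) after depletion of Hira (red), Ubn1 (blue) and Ubn2 (green), with called members filled and dotted lines at a fold change of 1.5. Robo4, Slit3 and Plxna4 are filled to the right in all 3 depletions, and Unc5a to the left in all 3.

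Markers of other cell types moved with some of these comparisons, and in bulk RNA a few cells of another type cannot be told apart from a low level in all cells. The summed CPM of 14 neural markers was 468 to 474 in control, 668 to 676 after Hira, 486 to 512 after Ubn1 and 345 to 360 after Ubn2 depletion, with Dcx at 0 in all groups. After Hira depletion 5 of 11 tested neural markers were called higher (45.5%, against 10.8% of all genes tested) and 1 lower (9.09%, against 5.4%). After Ubn1 depletion Tubb3 was called higher (9.09%, against 1.53%). After Ubn2 depletion 3 were called higher (27.3%, against 9.59%) and 4 lower (36.4%, against 8.75%). The 12 mesenchyme and heart muscle markers summed to 21.2 to 22.8 CPM in control, 25 to 26.2 after Hira, 15.6 to 21.6 after Ubn1 and 141 to 225 after Ubn2 depletion. Of these, 2 of 5 tested were called higher (40%, against 10.8% of all genes tested) and 1 lower (20%, against 5.4%) after Hira depletion. After Ubn2 depletion 8 of 11 were called higher (72.7%, against 9.59%) and 1 lower (9.09%, near the 8.75% of all genes). Col3a1, Postn and Csrp3 came up from 0 in control there. Markers can pass the filter on low counts through the group in which they are high. The numbers tested therefore differ, and these shares cannot be set against each other. None of the 4 mesenchyme and heart muscle markers tested was called after Ubn1 depletion by edgeR or DESeq2, and 0 had an unadjusted p under 0.05. Of all genes tested there, only 1.53% were called higher and 1.56% lower. The 8 endothelial markers summed to 128 to 133 CPM in control and 123 to 140 in the other libraries, yet Cdh5 (4.36), Kdr (2.56), Esam (1.81) and Tek (0.70) were called higher on the log2 scale after Ubn2 depletion and Kdr (1.62) and Tek (1.64) after Hira depletion. These were 4 of 7 tested after Ubn2 depletion (57.1%, against 9.59% of all genes) and 2 of 6 after Hira depletion (33.3%, against 10.8%). In Ubn1-depleted cells 0 of 6 endothelial markers were called by edgeR or DESeq2, against 1.53% of all genes called higher and 1.56% lower. Of the 6, 2 had a higher value at an unadjusted p under 0.05, Tek among them with 0.48 (adjusted p = 0.0303). Emcn was at 0 in all groups but Ubn2-depleted cells. The 6 primitive endoderm markers stayed between 6.52 and 12.4 CPM in sum. Of 5 tested, Sox17 was called higher after Hira depletion (20%, against 10.8% of all genes tested) and Gata6 lower after Ubn1 depletion (20%, against 1.56%). DESeq2 called 0 of them in these 2 comparisons. Of 10 ESC markers, Fgf4 was called lower after Hira depletion (10%, against 5.4%), and Fgf4 and Dppa5a after Ubn2 depletion (20%, against 8.75%). The part of these cell type markers in the values of the guidance genes was not tested.

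Slit3 and Robo4 rose in every depletion. Of the 6 tested Slits and Robos, 4 were called higher after Hira depletion (66.7%, against 10.8% of all genes tested), 2 after Ubn1 depletion (33.3%, against 1.53%) and 3 after Ubn2 depletion (50%, against 9.59%). None was called lower by edgeR or DESeq2, nor did any have an unadjusted p under 0.05 in that direction. Slit3, a secreted Slit ligand (chromosome 11, 35121224 to 35708507 of GRCm38, plus strand), had 4.43 and 5.25 CPM in control, 11.0 and 10.2 in Hira-depleted, 9.30 and 10.6 in Ubn1-depleted and 11.3 and 11.2 in Ubn2-depleted libraries. All 6 libraries of depleted cells lay above both control libraries. In that order, the log2 fold change of Slit3 was 1.11 (standard error, SE, 0.18, adjusted p = 8.27e-05), 1.03 (SE 0.19, adjusted p = 0.000582) and 1.20 (SE 0.18, adjusted p = 1.44e-05). Slit2 was called after Hira depletion, with a rise from 5.21 and 3.74 to 7.60 and 7.02 CPM (0.71, SE 0.21, adjusted p = 0.0118). Slit2 was no longer called without control replicate 2 (0.47, adjusted p = 0.179) or with DESeq2 (0.69, adjusted p = 0.0559). Slit1 was not called against control, with values from 0.912 to 2.69 CPM in control and Hira-depleted libraries.

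Robo4, the Robo family member known from endothelium, lies on chromosome 9 from 37401897 to 37415115 on the plus strand. Robo4 had 15.4 and 17.9 CPM in control, 26.6 and 34.4 after Hira, 31.2 and 30.1 after Ubn1 and 34.3 and 36.5 after Ubn2 depletion, without overlap between control and depleted libraries. Its log2 fold change was 0.84 (SE 0.13, adjusted p = 4.53e-05), 0.87 (SE 0.13, adjusted p = 1.93e-05) and 1.08 (SE 0.11, adjusted p = 2.31e-07) in that order. Robo3, a Robo of commissural axons, lies on the opposite strand from 37415669 to 37433246, so that the ends of both genes face each other across 553 bases. Robo3 went from 1.07 and 1.32 CPM to 5.57 and 4.60 after Hira and to 4.78 and 5.25 after Ubn2 depletion, and had 2.05 and 1.61 after Ubn1 depletion. It rose by 2.06 (SE 0.28, adjusted p = 9.58e-06) and 2.04 (SE 0.27, adjusted p = 4.74e-06) on the log2 scale after Hira and Ubn2 depletion and was not called after Ubn1 depletion. Robo4 was also called in Ubn1-depleted cells, where 1.53% of all genes tested were called higher. Of the 8 endothelial markers 6 were tested there, and 0 were called by edgeR or by DESeq2. Among these 6, 2 had a higher value at an unadjusted p under 0.05, Tek being one. After Hira depletion 2 of 6 tested endothelial markers were called higher (33.3%, against 10.8% of all genes tested). After Ubn2 depletion 4 of 7 were called higher (57.1%, against 9.59%), and 0 were called lower in either depletion. The part of endothelial cells in the Robo4 values was not tested. Robo1, at 42.6 and 46.8 CPM in control, had 51.0 to 58.8 in all depleted libraries and stayed under 1.5-fold throughout, with a log2 fold change of 0.37 after Ubn1 depletion (adjusted p = 0.0217) and 0.31 after Ubn2 depletion (adjusted p = 0.00946). The bases upstream of Robo4 are shown because it is a member called higher in each depletion. They run over chr9:37401722-37401896 on the plus strand (RefSeq promoter windows, GRCm38.p6) and stop where the annotated first exon begins.
Robo4: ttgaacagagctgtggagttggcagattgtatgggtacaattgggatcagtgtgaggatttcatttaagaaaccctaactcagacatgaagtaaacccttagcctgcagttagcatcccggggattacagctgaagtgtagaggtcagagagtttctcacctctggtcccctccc
In the 250-base window of Robo4, G and C made up 49.6% of the bases and there were 2 CpG sites, with neither a GC box (GGGCGG on either strand) nor a TATA box (TATAAA on either strand). The Slit3 window, 35121206 to 35121455, runs past the annotated start of the gene at 35121224. It is not shown because too few of its bases lie outside annotated exons. This window had 78.8% G and C, 35 CpG sites and 6 GC boxes. Across all members, 53 of 75 such windows, from 59 genes, held a GC box (70.7%), against 32.7% of all 32851 windows, and 2 held a TATA box (2.67%, against 12.4%). All members are protein coding, whereas the windows of all 27025 genes were not filtered by gene type. These shares therefore do not set guidance genes apart from other protein-coding genes. Presence or absence of these letters says nothing about which factor acts there.

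In the netrin system, the receptor Unc5a fell in every depletion, Ntn1 rose after Hira depletion and Ntn5 after Ubn2 depletion. Unc5a, a repulsive netrin receptor (chromosome 13, 54949411 to 55006018, plus strand), had 6.33 and 5.50 CPM in control, 4.21 and 2.23 in Hira-depleted, 1.19 and 3.38 in Ubn1-depleted and 0.644 and 0.968 in Ubn2-depleted libraries. The 6 depleted libraries were all below both controls, and the libraries of Ubn2-depleted cells were the lowest. Unc5a fell by 0.85 on the log2 scale after Hira depletion (SE 0.26, adjusted p = 0.0143), by 1.34 after Ubn1 depletion (SE 0.29, adjusted p = 0.00299) and by 2.87 after Ubn2 depletion (SE 0.29, adjusted p = 1.28e-07). The value after Hira depletion was -1.42 without Hira replicate 1, and the call was lost without Hira replicate 2 (-0.50, adjusted p = 0.122). It was also lost with all 8 libraries in one fit (-0.84, adjusted p = 0.0503). After Ubn1 depletion the value was -0.81 without Ubn1 replicate 1 and -2.31 without Ubn1 replicate 2. Unc5a shares 34 exon bases, 0.816% of its exon length, with Hk3 on the other strand. The 250 bases upstream of its start, chr13:54949161-54949410 on the plus strand, are shown beside those of Robo4 because Unc5a was the member called lower in each depletion, with GC box letters in capitals (CCGCCC is GGGCGG read on the other strand).
Unc5a: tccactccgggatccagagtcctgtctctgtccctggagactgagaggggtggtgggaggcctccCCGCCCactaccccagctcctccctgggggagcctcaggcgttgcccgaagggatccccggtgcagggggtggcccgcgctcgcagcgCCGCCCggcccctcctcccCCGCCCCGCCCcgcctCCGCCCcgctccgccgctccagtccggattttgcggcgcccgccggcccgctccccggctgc
This window held 5 GC boxes, a pair of which overlap, and 25 CpG sites at 76.8% G and C. The median over all member windows was 15 CpG sites at 64.4% G and C, against 6 sites at 52.4% over all windows, which were not filtered by gene type.

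Unc5b, which stood above Unc5a per kilobase in control, had 21.0 and 23.4 CPM there, 21.0 and 22.1 in Hira-depleted and 28.8 and 30.2 in Ubn2-depleted libraries, and it was not called (0.41 after Ubn2 depletion, adjusted p = 0.00569). Ntn1 rose after Hira depletion, from 101 and 118 to 163 and 186 CPM (0.65, SE 0.086, adjusted p = 6.72e-06). After Ubn2 depletion Ntn1 had 168 and 145 CPM, with a log2 fold change of 0.52 that stayed under the fold threshold (adjusted p = 3.1e-05). The Hira call stood near that threshold too, since leaving out control replicate 1 gave 0.54 and leaving out Hira replicate 2 gave 0.56, both under 1.5-fold. Ntn5, a netrin family gene, was called higher after Ubn2 depletion, with 1.85 and 1.73 CPM in control and 5.01 and 5.25 after Ubn2 depletion (1.52, SE 0.25, adjusted p = 5.32e-05). Ntn5 shares 519 exon bases (23.4% of its exons) with Sec1 on the opposite strand, whose mean went from 1.93 to 9.10 CPM after Ubn2 depletion (2.23, adjusted p = 5.84e-08). If counting did not use strand, reads on the shared bases could belong to either gene.

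Among ephrins and Eph receptors, Efna5 and Epha1 rose after Hira depletion, Epha8 fell after Ubn1 depletion, and Efnb2 rose while Epha8 and Epha10 fell after Ubn2 depletion. Of 18 tested members, 2 were thus called higher after Hira depletion (11.1%, against 10.8% of all genes tested) and 1 was called lower after Ubn1 depletion (5.56%, against 1.56%). After Ubn2 depletion 1 was called higher (5.56%, against 9.59%) and 2 lower (11.1%, against 8.75%), so the shares called higher after Hira and lower after Ubn2 depletion were near those of all genes. Both abundant receptors stayed under 1.5-fold: Epha2 had 204 and 247 CPM after Hira depletion (-0.29, adjusted p = 0.0142), and Epha4 went from 142 in each control to 99.3 and 108 (-0.47, SE 0.076, adjusted p = 6.3e-05). Efna5, an ephrin-A ligand of low level, rose after Hira depletion from 0.487 and 0.377 to 1.79 and 1.47 CPM (1.92, SE 0.45, adjusted p = 0.00204). Epha1 rose from 4.33 and 5.88 to 9.02 and 9.25 CPM in the same cells (0.80, SE 0.19, adjusted p = 0.00267) and had 2.60 to 3.82 CPM in the Ubn1- and Ubn2-depleted libraries, below both controls but without a call. Epha1 shares 236 exon bases (6.01%) with the cytoskeletal gene Zyx on the other strand, which had 0.38 on the log2 scale in the same comparison (adjusted p = 0.0174). Efna3 and Efna4, neighbours on chromosome 3 with 10.4 kb between them, stayed under the fold threshold after Hira depletion at 0.45 (adjusted p = 0.00997) and 0.46 (adjusted p = 0.0158). Efna3 shares 344 exon bases (14.1%) with Gm15998 and Efna4 168 (10.5%) with 4731419I09Rik, both on the other strand. In the same comparison Gm15998 had 0.51 (adjusted p = 0.0177) and 4731419I09Rik 0.55 (adjusted p = 0.00448).

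Epha8, an EphA receptor (chromosome 4, 136929419 to 136956816, minus strand), fell after Ubn1 and after Ubn2 depletion. It had 2.09 and 1.95 CPM in control, 2.18 and 0.996 in Hira-depleted, 0.274 and 0.614 in Ubn1-depleted and 0.230 and 0.561 in Ubn2-depleted libraries. The Hira-depleted libraries overlapped the controls and the other depleted libraries did not. Epha8 fell by 2.14 (SE 0.44, adjusted p = 0.00203) after Ubn1 depletion and by 2.36 (SE 0.46, adjusted p = 0.000308) after Ubn2 depletion on the log2 scale, with -2.86 without Ubn1 replicate 2 and -3.10 without Ubn2 replicate 2. Epha10, an Eph receptor without kinase activity, fell after Ubn2 depletion from 2.73 and 2.86 to 1.10 and 1.27 CPM (-1.24, SE 0.31, adjusted p = 0.00341). Efnb2, the ephrin-B ligand known as a marker of arteries, rose after Ubn2 depletion from 3.46 and 4.84 to 10.6 and 8.72 CPM (1.20, SE 0.20, adjusted p = 6.6e-05). After Hira depletion Efnb2 had 5.57 and 7.26 CPM and was not called. The endothelial cadherin Cdh5 went from a mean of 0.12 to 2.46 CPM after Ubn2 depletion. Of the 7 endothelial markers tested there, 5 had a higher and 2 a lower value. Of these 7, 4 were called higher (57.1%, against 9.59% of all genes tested) and 0 lower. The summed CPM of all 8 such markers was 128 to 133 in control and 135 to 140 after Ubn2 depletion. Their part in the Efnb2 values was not tested.

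Of 29 tested semaphorins, plexins and neuropilins, 8 were called higher (27.6%, against 10.8% of all genes tested) and 1 lower (3.45%, against 5.4%) after Hira depletion. After Ubn2 depletion 6 of 28 were called higher (21.4%, against 9.59%) and 3 lower (10.7%, near the 8.75% of all genes), and in Ubn1-depleted cells Plxna4 was called higher (3.57%, against 1.53%). Sema4b, a transmembrane semaphorin (chromosome 7, 80186841 to 80226527, plus strand), had the highest CPM per kilobase of the semaphorins in control, below the plexins Plxnb2 and Plxna1. Sema4b had 59.5 and 57.9 CPM in control, 89.1 and 92.8 after Hira, 81.2 and 82.0 after Ubn1 and 125 and 120.5 after Ubn2 depletion. Every depleted library lay above the controls, and the Ubn2-depleted libraries were the highest. It had a log2 fold change of 0.62 with Hira depleted (SE 0.079, adjusted p = 5.19e-06), 0.47 after Ubn1 depletion (SE 0.096, adjusted p = 0.00163, under 1.5-fold) and 1.06 after Ubn2 depletion (SE 0.072, adjusted p = 4.07e-10). Without Hira replicate 2 the first of these was 0.58, which is under 1.5-fold. Sema6a, a transmembrane semaphorin that binds class A plexins, rose from 0.292 and 0.472 CPM to 1.33 and 2.61 after Hira depletion (2.25, SE 0.47, adjusted p = 0.000899) and to 1.29 and 1.27 after Ubn2 depletion (1.68, SE 0.48, adjusted p = 0.00811). The Ubn2 value of Sema6a was no longer called without control replicate 1 (1.43, adjusted p = 0.0724), without Ubn2 replicate 1 (1.68, adjusted p = 0.0524) or with DESeq2 (1.72, adjusted p = 0.0773).

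Sema6b, a relative of Sema6a on chromosome 17 (56123085 to 56140343, minus strand), was the member called in opposite directions. It had 4.28 and 5.94 CPM in control, 11.0 and 13.9 in Hira-depleted, 3.69 and 4.65 in Ubn1-depleted and 3.54 and 3.06 in Ubn2-depleted libraries. The Hira-depleted libraries lay above all others and the Ubn2-depleted libraries below all others. Sema6b rose by 1.23 on the log2 scale after Hira depletion (SE 0.19, adjusted p = 4.2e-05) and fell by 0.64 after Ubn2 depletion (SE 0.23, adjusted p = 0.0336). The fall was not called by DESeq2 (-0.64, adjusted p = 0.17), without control replicate 2 (-0.38, adjusted p = 0.355) or without Ubn2 replicate 2 (-0.55, adjusted p = 0.121). RefSeq gives 2 starts for Sema6b, and the 250 bases before each are shown for that reason, from chr17:56140344-56140593 (the outer start) and chr17:56133853-56134102 (the inner start) on the minus strand, with the GC box in capitals.
Sema6b outer start: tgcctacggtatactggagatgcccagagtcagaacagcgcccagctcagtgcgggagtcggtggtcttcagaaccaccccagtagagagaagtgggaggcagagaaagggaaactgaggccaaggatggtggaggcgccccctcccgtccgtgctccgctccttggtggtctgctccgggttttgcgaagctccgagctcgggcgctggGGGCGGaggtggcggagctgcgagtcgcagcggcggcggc
Sema6b inner start: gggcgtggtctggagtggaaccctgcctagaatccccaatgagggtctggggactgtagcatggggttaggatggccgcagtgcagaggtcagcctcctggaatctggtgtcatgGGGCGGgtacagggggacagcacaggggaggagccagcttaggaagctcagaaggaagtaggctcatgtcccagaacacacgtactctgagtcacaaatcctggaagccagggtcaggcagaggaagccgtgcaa
The windows held 1 GC box each, with 20 CpG sites at 66.0% G and C before the outer start and 5 at 59.2% before the inner start. Gene counts do not separate transcripts from the 2 starts.

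Other semaphorins were called in a single depletion. Sema6c (chromosome 3, 95160457 to 95174024, plus strand) had 31.5 and 38.3 CPM in control, 29.0 to 33.1 after Hira and Ubn1 depletion and 13.4 and 16.1 after Ubn2 depletion. Sema6c fell by 1.25 on the log2 scale after Ubn2 depletion (SE 0.13, adjusted p = 1.15e-07). Sema4g fell from 26.8 and 29.3 to 12.6 and 19.1 CPM in the same cells (-0.83, SE 0.15, adjusted p = 0.000106), and without Ubn2 replicate 1 its value of -0.56 was under 1.5-fold. The secreted semaphorins Sema3b and Sema3f lie 72.3 kb apart on chromosome 9 and moved differently. Sema3f fell after Hira depletion from 9.30 and 7.80 to 4.72 and 4.70 CPM (-0.87, SE 0.19, adjusted p = 0.00146). Sema3b rose after Ubn2 depletion from 2.92 and 3.27 to 5.06 and 4.89 CPM (0.68, SE 0.23, adjusted p = 0.0212). That rise was not called without control replicate 1 (0.60, adjusted p = 0.0892), without Ubn2 replicate 1 (0.65, adjusted p = 0.0758) or with DESeq2 (0.68, adjusted p = 0.124). Just outside the fold threshold after Hira depletion were Sema7a (0.57, adjusted p = 0.00475), Sema4d (0.49, adjusted p = 0.000432) and Sema4a (-0.51, adjusted p = 0.00281).

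Both neuropilins, the co-receptors of class 3 semaphorins and of vascular endothelial growth factor, rose after Hira and after Ubn2 depletion. Nrp1 (chromosome 8, 128358604 to 128503363, plus strand) had 0.0974 and 0.440 CPM in control, 2.06 and 2.94 in Hira-depleted, 0.410 and 0.730 in Ubn1-depleted and 1.75 and 1.27 in Ubn2-depleted libraries. The log2 fold change came to 3.02 with Hira depleted (SE 0.48, adjusted p = 5.49e-05) and 2.33 after Ubn2 depletion (SE 0.53, adjusted p = 0.00148). These sizes rest on a low control level and came to 4.58 and 3.88 without control replicate 2. Nrp2 (chromosome 1, 62703285 to 62818695, plus strand) went from 16.2 and 10.6 CPM to 39.5 and 40.6 after Hira depletion and to 33.4 and 32.5 after Ubn2 depletion, with 14.0 and 15.6 after Ubn1 depletion. The Ubn1-depleted libraries lay between the controls, and Nrp2 rose by 1.58 (SE 0.14, adjusted p = 7.37e-08) and 1.32 (SE 0.15, adjusted p = 4.16e-07) on the log2 scale in the other depletions.

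Among plexins, the signalling receptors of semaphorins, Plxna4 (chromosome 6, 32144268 to 32588192, minus strand) rose in each depletion. Plxna4 had 2.19 and 2.29 CPM in control, 2.88 and 5.03 after Hira, 5.06 and 5.57 after Ubn1 and 5.15 and 5.20 after Ubn2 depletion. The libraries of Hira-depleted cells differed most from each other. The log2 fold change was 0.77 (SE 0.29, adjusted p = 0.0451), 1.24 (SE 0.25, adjusted p = 0.00131) and 1.20 (SE 0.24, adjusted p = 0.000381). For Hira depletion the adjusted p was 0.102 without control replicate 1 (0.74), 0.0893 without control replicate 2 (0.80), 0.494 without Hira replicate 2 (0.33) and 0.148 with DESeq2 (0.77). Plxnb1 rose after Hira depletion from 28.5 and 31.8 to 47.7 and 49.0 CPM (0.66, SE 0.097, adjusted p = 2.27e-05) and had 0.58, under 1.5-fold, without control replicate 1. Plxnc1, the receptor of Sema7a, had 0.876 and 1.01 CPM in control and 1.82 and 2.04 after Hira depletion (1.00, SE 0.36, adjusted p = 0.0363). With any of the 4 libraries left out it was not called (0.91 to 1.11), without control replicate 1 or 2 as well as without Hira replicate 1 or 2, nor was it by DESeq2 (1.00, adjusted p = 0.171). The abundant plexins Plxna1 and Plxnb2 stayed under 1.5-fold, at 0.41 (adjusted p = 9.4e-05) and 0.28 (adjusted p = 0.00208) after Ubn2 depletion, although 970 exon bases of Plxna1 (10.7%) are shared with the antisense gene Gm26811.

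**Figure D3:**
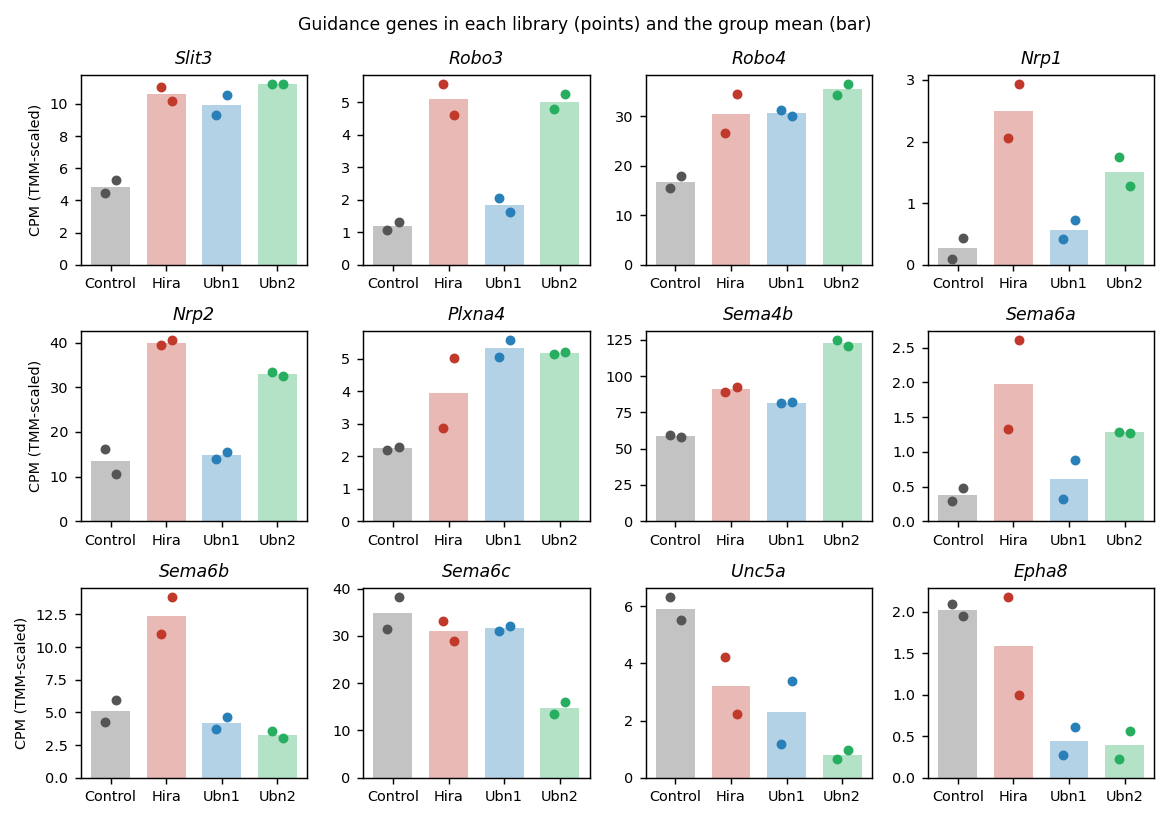
CPM of 12 called members in each library (points) with the mean of the 2 libraries of a group (bar, from 0) for control, Hira-, Ubn1- and Ubn2-depleted ESCs. Slit3, Robo4, Plxna4 and Sema4b are above control in every depleted library, Unc5a is below control in every depleted library, and Sema6b is above both controls in the Hira-depleted libraries and below both in the Ubn2-depleted ones.

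Levels were also summed over each system. Such a sum can follow a single gene of high level. In control the mean CPM per kilobase was 17.4 for Ntn1, 58.3 for Epha2, 0.798 for Slit3 and 3.55 for Unc5b. The Slit ligands went from 1.17 CPM per kilobase in each control library to 2.57 and 2.19 after Hira, 1.87 and 2.09 after Ubn1 and 2.19 and 2.15 after Ubn2 depletion, and the Robos from 5.64 and 6.41 to between 8.93 and 10.9 in the depleted libraries. The netrins went from 17.3 and 20.1 to 27.7 and 30.7 after Hira and 29.7 and 26.1 after Ubn2 depletion, with 19.0 and 19.1 after Ubn1 depletion, while Dcc and the Unc5 receptors together stayed between 3.75 and 5.08 in all 8 libraries. Eph receptors summed to 83.7 and 92.4 after Hira depletion, below both controls, and to between 96.9 and 115 in the other depleted libraries. The ephrins went from 20.1 and 23.4 in control to 28.9 and 29.0 after Hira depletion, with 22.6 to 28.6 in the other depleted libraries. Semaphorins had 42.0 and 45.4 in control, 51.9 and 53.8 after Hira depletion and 45.5 to 50.2 in the others. Plexins with neuropilins had 43.3 and 45.3, then 50.2 and 49.9, and 47.7 to 56.7 in the same order.

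Hira- and Ubn2-depleted cells were also compared directly, which tests the differences between these depletions without the control libraries. Of 58 tested members, 9 were called higher after Hira depletion (15.5%, near the 12.0% of all 18563 genes tested) and 2 higher after Ubn2 depletion (3.45%, against 5.61%). The Eph receptors Epha8, Epha10, Epha1 and Ephb6 were among the 9. They were 4 of 18 tested ephrins and Eph receptors (22.2%, against 12.0%), with 1 of the 18 called higher after Ubn2 depletion (5.56%, near the 5.61%). The log2 difference, Hira over Ubn2 depletion, was 1.80 for Epha10 (SE 0.29, adjusted p = 0.000262), whose CPM of 4.24 and 3.98 after Hira depletion stood above control and 1.10 and 1.27 after Ubn2 depletion below it. For Epha1 it was 1.41 (SE 0.20, adjusted p = 0.000101). Epha8 differed by 2.06 (SE 0.54, adjusted p = 0.00797), a value that came to 2.81 without Ubn2 replicate 2 and was no longer called without Hira replicate 1 (1.35, adjusted p = 0.205). Ephb6, a kinase-inactive Eph receptor, had 6.24 and 4.89 CPM in Hira-depleted and 3.59 and 2.75 in Ubn2-depleted libraries (0.82, SE 0.24, adjusted p = 0.0156). It was not called without Hira replicate 1 (0.63, adjusted p = 0.0984), without Ubn2 replicate 2 (0.65, adjusted p = 0.0906) or with DESeq2 (0.81, adjusted p = 0.0639).

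Among semaphorins, Sema6b differed by 1.91 (SE 0.20, adjusted p = 7.08e-06), Sema6c by 1.09 (SE 0.13, adjusted p = 1.76e-05) and Sema7a by 0.68 (SE 0.16, adjusted p = 0.00374), all higher after Hira depletion. Sema7a, a membrane-anchored semaphorin, had 14.5 and 17.6 CPM in Hira-depleted and 11.0 and 8.92 in Ubn2-depleted libraries, and came to 0.54 without Ubn2 replicate 2 or without Hira replicate 2, under 1.5-fold. Unc5a was higher after Hira than after Ubn2 depletion by 2.03 (SE 0.39, adjusted p = 0.000992), although both values were below control. Slit1 had 2.69 and 1.42 CPM in Hira-depleted and 0.782 and 0.510 in Ubn2-depleted libraries (1.69, SE 0.43, adjusted p = 0.00696), and was not called without Hira replicate 1 (1.13, adjusted p = 0.161). The 2 members higher after Ubn2 depletion were Ntn5 (-1.33, SE 0.28, adjusted p = 0.00179), whose partner Sec1 differed by -1.52 (adjusted p = 5.62e-05), and Efnb2 (-0.60, SE 0.19, adjusted p = 0.0236). Efnb2 was not called without Ubn2 replicate 1 (-0.45, adjusted p = 0.169), without Hira replicate 1 (-0.41, adjusted p = 0.172) or with DESeq2 (-0.61, adjusted p = 0.0681). Robo3, Robo4, Slit3, Nrp1, Nrp2, Plxna4, Sema4b and Sema6a, called higher in both depletions against control, were not called in this comparison, where Nrp2 had 0.29 (adjusted p = 0.0251) and Sema4b -0.42 (adjusted p = 0.000385).

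**Figure D4:**
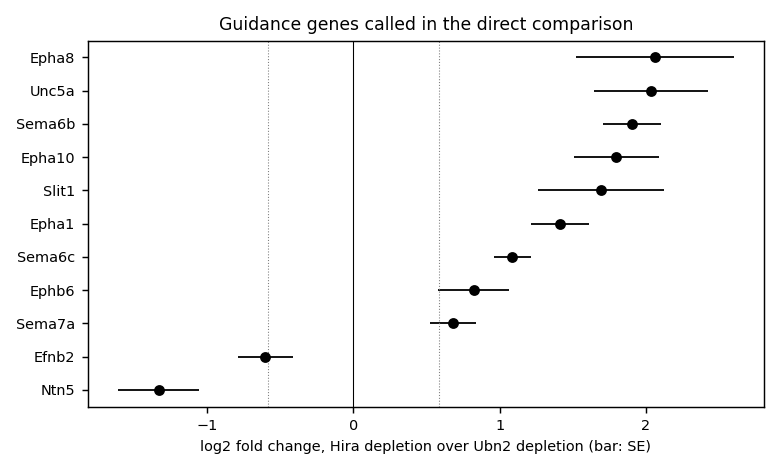
Log2 fold change of Hira depletion over Ubn2 depletion for the 11 members called in this direct comparison (points, with 1 standard error as a bar; dotted lines at a fold change of 1.5). The 9 members to the right are higher after Hira depletion, led by Epha8 at 2.06, and Efnb2 and Ntn5 to the left are higher after Ubn2 depletion.

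Other genes of the guidance pathway were counted from lists drawn up by function. Of 38 further cues and receptors, 11 were called higher (33.3%, against 10.8% of all genes tested) and 1 lower (3.03%, against 5.4%) of 33 tested after Hira depletion, with a median of 0.30. After Ubn1 depletion 1 of 32 was called in each direction (3.12%, against 1.53% higher and 1.56% lower; median 0.15). After Ubn2 depletion 4 of 32 were called higher (12.5%, near the 9.59% of all genes) and 5 lower (15.6%, against 8.75%), with a median of 0.13. In the direct comparison, 11 of 33 were higher in Hira-depleted cells (33.3%, against 12.0%) and 2 in Ubn2-depleted cells (6.06%, near the 5.61% of all genes), with a median of 0.35. Those with the smallest adjusted p after Hira depletion were the teneurin Tenm3 (0.69, adjusted p = 1.03e-05), the reelin receptor Lrp8 (0.80, adjusted p = 0.000106) and the adhesion molecule Nrcam (1.60, adjusted p = 0.00011). After Ubn2 depletion the reelin receptor Vldlr fell by 2.13 (adjusted p = 2.76e-08), the secreted guidance protein Draxin rose by 1.96 (adjusted p = 3.73e-08) and the axonal adhesion molecule Cntn2 fell by 1.46 (adjusted p = 1.13e-06). Tenm4 (0.83, adjusted p = 1.08e-06) and Vldlr (-0.87, adjusted p = 0.00318) were the called genes after Ubn1 depletion. Lrp8 and Cntn2 were higher after Hira than after Ubn2 depletion, by 1.99 (adjusted p = 9.08e-07) and 1.61 (adjusted p = 7.28e-06).

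Of 52 intracellular effectors of guidance receptors, all tested, 12 were called higher after Hira depletion (23.1%, against 10.8% of all genes tested), with a median of 0.21. None was called lower there by edgeR or DESeq2, against 5.4% of all genes, and 6 had a lower value at an unadjusted p under 0.05. After Ubn1 depletion 2 were called higher (3.85%, against 1.53%) and 1 lower (1.92%, against 1.56%), with a median of 0.06. With Ubn2 depleted 5 were called higher (9.62%, near the 9.59% of all genes) and 2 lower (3.85%, against 8.75%), with a median of -0.05. The collapsin response mediator Dpysl3 rose after Hira depletion (1.26, adjusted p = 1.52e-08), as did the adaptor Grb10 (1.5, adjusted p = 2.72e-08) and the guanine nucleotide exchange factor Trio (1.07, adjusted p = 2.32e-07). After Ubn2 depletion the Slit-Robo GTPase activating protein Srgap2 rose (0.78, adjusted p = 2.37e-08), Dpysl5 fell by 1.41 (adjusted p = 3.23e-07) and Trio rose (0.75, adjusted p = 4.64e-05). Srgap3 (0.81), Ablim1 (0.59) and Grb10 (-0.66) were the called effectors after Ubn1 depletion. In the direct comparison, 13 effectors were called higher in Hira-depleted cells (25%, against 12.0% of all genes tested) and 1 in Ubn2-depleted cells (1.92%, against 5.61%), with a median of 0.30. Among them were Dpysl5 at 2.46 (adjusted p = 1.26e-08) and Dpysl3 at 1.63 (adjusted p = 4.44e-07).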

How the data were processed

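The authors trimmed paired-end reads with Trim Galore, aligned them to GRCm38 with STAR, counted reads on Ensembl genes with featureCounts and deposited raw counts per gene, without normalization, in 3 tables that repeat the same control libraries. The control values were checked to be identical (0 differing), so they entered once. Versions, strand setting and the treatment of reads with several matches are not given in the sources used here. Members, lists, the naming rule and the tests were chosen with earlier results of these data known.

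All 55418 genes entered each fit in edgeR 4.0.16 (R 4.3.3, limma 3.58.1): filterByExpr, TMM scaling over the libraries compared, quasi-likelihood tests on the 2 groups compared and Benjamini-Hochberg adjustment. Calls needed a fold change over 1.5 at an adjusted p under 0.05. The standard error is the log2 fold change over the square root of the F statistic. CPM uses TMM-scaled totals of all 8 libraries (factors 0.970 to 1.06), and lengths are the union of exons in GENCODE M21. With 2 libraries a group, 3 counts correspond to 0.0908 to 0.153 CPM. Named genes were all called members, the 2 ligands and 2 receptors of highest control level per system, members near a threshold, the targeted genes, marker genes by list and up to 3 called genes of each pathway list per comparison; Robo2, Dcc and the other members at 0 in control, the overlapping genes and the called markers were named after their values were seen. RefSeq promoter windows (GRCm38.p6) were matched by symbol.

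Alternatives were DESeq2 1.42.0 (Wald test), its size factors in edgeR, no filter, a minimum of 10 counts in each library compared, a joint fit of all 8 libraries, a replicate block, adjusted p alone and each library left out. The fits were tested on simulated data. Tables and plots were made with Python 3.11.15 (pandas 2.3.3, numpy 2.4.6, matplotlib 3.10.9, scipy 1.17.1).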

Additional observations from a re-analysis of the deposited data

Results flagged for a closer look

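Sema6b was picked out because it was called in opposite directions after Hira and Ubn2 depletion and called in the direct comparison too. These calls are the rule itself and no further evidence. Sema6b was 1.91 higher on the log2 scale after Hira than after Ubn2 depletion (SE 0.20, adjusted p = 7.08e-06 in edgeR). The libraries had 11.0 and 13.9 CPM against 3.54 and 3.06. The rise of 1.23 over control after Hira depletion was called under all alternatives run, whereas the fall by 0.64 after Ubn2 depletion was lost in 3 of them. The cause of the difference was not tested. Groups of 2 libraries are too small for a check on single outlying libraries.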

How the results depend on the processing

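Calls of members were all kept with DESeq2's size factors in edgeR, without a filter on low counts and with the replicate block. DESeq2's Wald test gave 1 member lower after Ubn1 depletion, where Epha8 had no adjusted p, and 1 higher after Ubn2 than after Hira depletion, where Efnb2 was lost. It also lost Slit2, Plxna4 and Plxnc1 after Hira depletion, Sema3b, Sema6a and Sema6b after Ubn2 depletion and Ephb6 in the direct comparison. A minimum of 10 counts in every library left 1 member lower after Ubn1 depletion, because Epha8 was not tested. The same minimum left Nrp1 and Sema6a untested after Hira depletion, Nrp1, Sema6a and Epha8 untested after Ubn2 depletion and Epha8 untested in the direct comparison, and no other call was lost under it. All 8 libraries in one fit left 1 member lower after Hira depletion, since Unc5a had an adjusted p of 0.0503. The cause of these losses with DESeq2 and the joint fit was not tested. Adjusted p alone, which drops the fold threshold, gave 6 members lower after Hira depletion, 7 higher after Ubn1 depletion, 20 higher after Ubn2 depletion, and in the direct comparison 14 higher with Hira and 7 higher with Ubn2 depleted.

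With single libraries left out, the members called after Hira depletion numbered 13 to 17 higher and 1 to 2 lower, with 1 lower without Hira replicate 2. The counts were 3 higher and 2 to 3 lower after Ubn1 depletion, 9 to 13 higher and 6 to 7 lower after Ubn2 depletion, and in the direct comparison 6 to 11 higher with Hira and 2 to 3 higher with Ubn2 depleted. A lone library was then taken to vary like the other group. No direction was reversed.

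Equal replicate numbers did not mark pairs: after subtraction of group means, libraries with the same number correlated between -0.0521 and 0.0672 over 19264 genes. With the replicate block, 16 members were called higher after Hira depletion, 3 after Ubn1 and 11 after Ubn2 depletion, and 10 higher after Hira than after Ubn2 depletion. Depth limited the members under 1 CPM, and the median log2 fold change of the tested members after Ubn2 depletion ranged from 0.04 to 0.25 over the alternatives.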
